A study of Mus musculus with 6 samples.

Results

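The 9 genes described here encode the receptor chains of interleukin-10 (Il10ra, Il10rb) and interleukin-6 (Il6ra, Il6st), the transcription factor Stat3, and the feedback inhibitors Socs1, Socs2, Socs3 and Cish. They were chosen by gene symbol from a count table of 55493 genes, and all 9 were among the 18210 genes with enough reads to be tested. The libraries were made from microglia, macrophages that live in brain tissue, sorted by flow cytometry for low CD45 and for CD11b. Treated mice received the Fc-mutant anti-LILRB4 antibody ZM3.1 (3 libraries), which binds an inhibitory receptor of human myeloid cells, and controls received the Fc-mutant antibody 27D6, named Ctrl IgG2a (3 libraries). All were male ILT Telo Tg x 5XFAD mice, 4 months old at the start, injected with 60 mg/kg each week for 8 weeks. The transgene named ILT Telo Tg supplies the human receptor, which mice lack, and 5XFAD is a transgenic mouse model of amyloid deposition in the brain. The labels do not say whether each library came from 1 animal, so p-values measure the spread between libraries.

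Interleukin-10 is a brake on macrophage activation. It binds IL10RA, which then recruits the shared chain IL10RB, and the kinases JAK1 and TYK2 on these chains phosphorylate STAT3. Interleukin-6 binds IL6RA and signals through gp130, the product of Il6st, which also passes signals of other cytokines to STAT3. SOCS proteins are induced by STATs and close the loop: SOCS3 blocks gp130 signalling, SOCS1 blocks JAK kinases mainly below interferon receptors, and SOCS2 and CISH are induced by STAT5 and restrain growth hormone and common-gamma and beta chain cytokine receptors.

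STAT dimers recognise the palindrome TTCNNNGAA. It was searched in windows of 300 bases around RefSeq transcription starts (GRCm38.p6), reading 250 bases before to 50 after the start. Windows were at hand for 6 of the 9 genes, Il6ra, Il6st, Stat3, Socs1, Socs3 and Cish. Only Socs3 and Cish held a match among these 6 genes, and 9.55% of 27025 genes did (8.3% of 32851 windows). Both are printed because these 2 inhibitors had the lowest fold changes of the 9 genes, a choice made after these were seen. A link between matches and fold changes was not tested. Capitals mark the matches.
Cish, chr9:107296409-107296708, plus strand: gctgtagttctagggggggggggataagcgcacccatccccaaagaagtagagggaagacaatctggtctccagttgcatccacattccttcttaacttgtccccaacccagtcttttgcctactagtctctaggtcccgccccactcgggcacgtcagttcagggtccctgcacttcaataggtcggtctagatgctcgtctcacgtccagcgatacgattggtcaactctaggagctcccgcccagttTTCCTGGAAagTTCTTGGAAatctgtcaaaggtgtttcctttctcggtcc
Socs3, chr11:117969317-117969616, minus strand: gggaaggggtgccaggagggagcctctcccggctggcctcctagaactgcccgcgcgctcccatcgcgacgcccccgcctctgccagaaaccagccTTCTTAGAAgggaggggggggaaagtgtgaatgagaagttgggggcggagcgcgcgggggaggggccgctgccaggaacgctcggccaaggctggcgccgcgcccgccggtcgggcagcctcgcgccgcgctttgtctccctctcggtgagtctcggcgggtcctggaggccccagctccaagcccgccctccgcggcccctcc
In Cish the matches TTCCTGGAA and TTCTTGGAA began 11 bases apart, the first at the transcription start itself. In Socs3 the match TTCTTAGAA began 154 bases before the start. Both starts are those of RefSeq. In GENCODE M21 the genes begin further upstream, at 107296026 for Cish and 117970047 for Socs3, so both windows lie within them. A match describes letters and does not show that a STAT was bound.

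Total counts were between 39805118 and 56345514 per library. All 10 microglia markers were detected, and their summed level was 38352.5 to 38677 CPM (reads scaled to a common library size, with TMM factors) in anti-LILRB4 libraries and 36361 to 38490 in Ctrl IgG2a libraries. Summed markers of 2 cell types were apart between the groups, in each through its most abundant gene. B cell markers summed to 663 to 744 CPM in anti-LILRB4 libraries and 484 to 605 in Ctrl IgG2a libraries, with all 7 tested. Without Ighm, an immunoglobulin heavy chain gene, the sums were 167, 195 and 178 CPM in anti-LILRB4 libraries and 208, 83.1 and 143 in Ctrl IgG2a libraries, which overlapped. Oligodendrocyte lineage markers, 5 of 8 of them tested, summed to 132.1 to 132.3 CPM in anti-LILRB4 libraries and 98.0 to 109 in Ctrl IgG2a libraries. Without Cnp, a gene of myelin-forming cells, they were 41.2, 25.8 and 21.9 CPM in anti-LILRB4 libraries and 25.9, 29.1 and 20.7 in Ctrl IgG2a libraries, which overlapped. Neutrophil markers, 9 of 12 tested and none at 0 in all libraries, summed to 125, 1072 and 206 CPM in anti-LILRB4 libraries 1, 2 and 3 and to 1298, 548 and 593 in Ctrl IgG2a libraries 1, 2 and 3. Mitochondrially encoded genes took 2.80 to 3.29% of counts in anti-LILRB4 libraries and 3.73 to 4.69% in Ctrl IgG2a libraries. Reads of the human LILRB4 transgene were at 850.4, 1304 and 3297 CPM in anti-LILRB4 libraries 1, 2 and 3 and at 1029, 1031 and 1078 in Ctrl IgG2a libraries 1, 2 and 3, so anti-LILRB4 library 3 stood apart. The part of these differences in the results below was not tested, and in sorted bulk RNA fewer cells of a type and less RNA per cell cannot be told apart.

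None of the 9 genes passed the test of treatment. In edgeR's quasi-likelihood test with Benjamini-Hochberg adjustment over all 18210 genes, 0 of the 9 were called at an adjusted p of 0.05, and 0% of all genes were. At an unadjusted p under 0.05 there was 1 of the 9, Cish, against 8.03% of all genes. The groups did not overlap in Il10ra and Cish, 2 of the 9, against 14.7% of all genes (6.94% with the anti-LILRB4 libraries higher and 7.79% with them lower). Cish passed the filter on low counts through the Ctrl IgG2a libraries alone, so among tested genes it was bound to be lower, without overlap. DESeq2 called 0 of the 8 genes to which it gave an adjusted p, against 1.1% of all genes, and limma-voom called 0 of the 9. Without anti-LILRB4 library 3, which stood apart in the transgene, edgeR also called 0 of the 9, and the groups did not overlap in 4 of them, against 24.6% of all genes in that fit. With any 1 library left out they did not overlap in 2 to 5, against 23.1 to 26.8% of all genes. The 5 came without Ctrl IgG2a library 2. In the authors' deposited table, too, 0 of the 9 had an adjusted p under 0.05, against 0.981% of its genes with one.

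**Figure D1:**
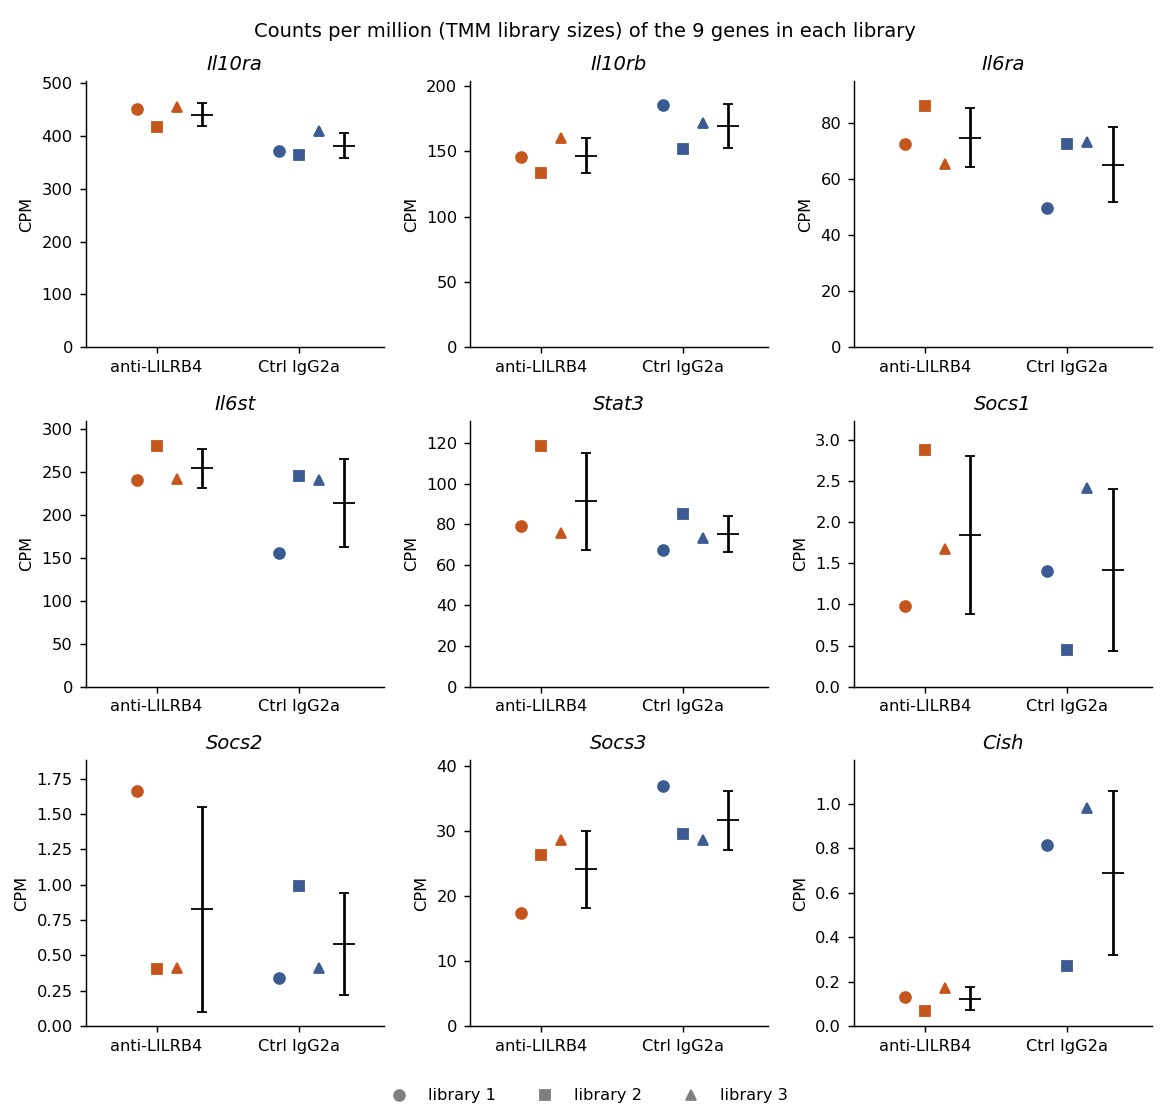
CPM of the 9 genes in each library, with anti-LILRB4 libraries on the left of each panel and Ctrl IgG2a libraries on the right. The marker shape gives the library number, and the black bar is the mean with its SD (n = 3 libraries). The groups are apart in Il10ra and Cish and overlap in the other 7 genes.

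The interleukin-10 receptor chains had the highest levels of the 9 genes per kb of exon, and their fold changes were of opposite sign, neither past the test. Il10ra, the ligand-binding chain, was at 451, 417 and 455 CPM in anti-LILRB4 libraries 1, 2 and 3 and at 373, 364 and 409.6 CPM in Ctrl IgG2a libraries 1, 2 and 3. Every anti-LILRB4 library lay above every control, with a small gap between the lowest of the first and the highest of the second. Il10ra averaged 441 ± 21.1 CPM in anti-LILRB4 libraries and 382 ± 24.1 CPM in Ctrl IgG2a libraries (SD, n = 3 each). The ratio was 1.15-fold with a 95% interval of 0.997 to 1.33, and the edgeR adjusted p was 0.626.

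Il10rb, the signalling partner that IL10RA shares with interferon-lambda and interleukin-22 receptors, was at 146, 134 and 160.4 CPM in anti-LILRB4 libraries and at 185, 152 and 172 CPM in Ctrl IgG2a libraries. The groups overlapped through anti-LILRB4 library 3 and Ctrl IgG2a library 2. The log2 fold change was -0.21 with a 95% interval of -0.47 to 0.05 (edgeR adjusted p 0.688). Exons of Il10rb overlap those of Gm21970 on the same strand in GENCODE M21, so reads there may be split or shared between them.

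A ratio of reads within a library does not depend on library scaling. There were 3.09, 3.12 and 2.84 Il10ra reads per Il10rb read in anti-LILRB4 libraries 1, 2 and 3 and 2.01, 2.39 and 2.39 in Ctrl IgG2a libraries 1, 2 and 3. All anti-LILRB4 libraries lay above all controls, as they did in Il10ra alone. The means were 3.01 ± 0.152 in anti-LILRB4 libraries and 2.26 ± 0.219 in Ctrl IgG2a libraries (SD, n = 3 each). This ratio and the 2 below were chosen after the genes' values were seen and were given no test.

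Il6ra and Il6st, the interleukin-6 receptor pair, varied together from library to library. Il6ra was at 72.5, 86.0 and 65.3 CPM in anti-LILRB4 libraries and at 49.5, 72.5 and 73.1 CPM in Ctrl IgG2a libraries. Il6st was at 241, 281 and 243 CPM in anti-LILRB4 libraries and at 156, 246 and 241 CPM in Ctrl IgG2a libraries. In both genes anti-LILRB4 library 2 was highest and Ctrl IgG2a library 1 lowest, and the remaining libraries overlapped. These were also the libraries with the most neutrophil marker reads of their groups, and the part of neutrophils was not tested. Stat3, Jak1, Lifr and Csf1r were also highest in anti-LILRB4 library 2 and lowest in Ctrl IgG2a library 1. The shared extremes were thus not particular to the pair. Il10rb, in reverse, was lowest in anti-LILRB4 library 2 and highest in Ctrl IgG2a library 1. Il6ra reads were 0.301, 0.306 and 0.269 per Il6st read in anti-LILRB4 libraries and 0.318, 0.295 and 0.303 in Ctrl IgG2a libraries. The read ratio thus spanned 1.18-fold over the 6 libraries, while Il6ra spanned 1.74-fold and Il6st 1.81-fold in CPM.

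The log2 fold changes were 0.20 for Il6ra, with a 95% interval of -0.19 to 0.59, and 0.25 for Il6st, with one of -0.12 to 0.62. Their edgeR adjusted p-values were 0.810 and 0.750. Without Ctrl IgG2a library 1 the log2 fold changes were 0.04 for Il6ra and 0.06 for Il6st. Without anti-LILRB4 library 2 they were 0.09 for Il6ra and 0.18 for Il6st.

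Stat3, the transcription factor that both receptors activate, was at 79.2, 119 and 75.8 CPM in anti-LILRB4 libraries and at 67.4, 84.8 and 73.1 CPM in Ctrl IgG2a libraries. Anti-LILRB4 library 2 stood above the other 5 libraries, which overlapped. The log2 fold change was 0.28 with a 95% interval of -0.12 to 0.68 (edgeR adjusted p 0.739), and it was 0.05 without that library. Exons of Stat3 overlap those of Stat5a on the opposite strand, and the library kit does not mark strand. The level of mRNA says nothing of STAT3 phosphorylation, which was not measured.

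Socs3, the inhibitor induced by STAT3 that blocks gp130, was the most abundant of the 4 inhibitors. It was at 17.4, 26.3 and 28.6 CPM in anti-LILRB4 libraries and at 36.9, 29.6 and 28.6 CPM in Ctrl IgG2a libraries. The groups met at anti-LILRB4 library 3 and Ctrl IgG2a library 3. Socs3 averaged 24.1 ± 5.93 CPM in anti-LILRB4 libraries and 31.7 ± 4.55 CPM in Ctrl IgG2a libraries (SD, n = 3 each). The log2 fold change was -0.39 with a 95% interval of -0.85 to 0.07 (edgeR adjusted p 0.675). It was -0.20 without anti-LILRB4 library 1 and -0.27 without Ctrl IgG2a library 1.

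Socs3 reads numbered 0.219, 0.222 and 0.377 per Stat3 read in anti-LILRB4 libraries and 0.548, 0.349 and 0.391 in Ctrl IgG2a libraries. Anti-LILRB4 libraries 1 and 2 lay below all controls, and anti-LILRB4 library 3 lay among them. Socs3 and Stat3 therefore had mean differences of opposite sign, neither past the test.

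**Figure D2:**
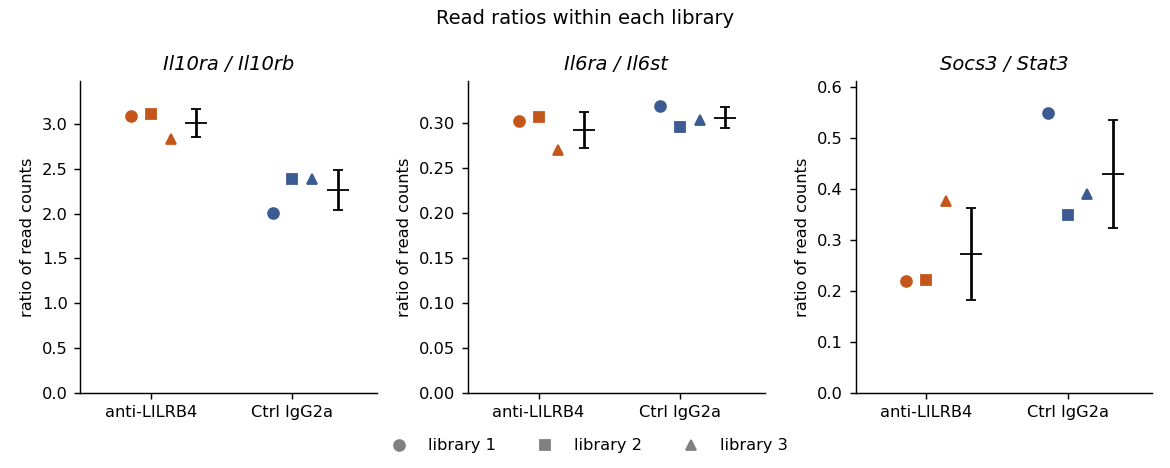
Ratios of read counts within each library for Il10ra over Il10rb, Il6ra over Il6st and Socs3 over Stat3, with anti-LILRB4 libraries left and Ctrl IgG2a libraries right and the mean with its SD in black (n = 3). The first ratio separates the groups at 2.84 to 3.12 in anti-LILRB4 libraries and 2.01 to 2.39 in Ctrl IgG2a libraries, while the second stays between 0.269 and 0.318 in all 6. The ratios were chosen after the genes' values were seen, with the groups already apart in Il10ra alone, and were not tested.

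Cish, an inhibitor of receptors that signal through STAT5, had the largest difference of the 9 genes and the lowest counts in treated libraries. It had 6, 4 and 7 reads in anti-LILRB4 libraries 1, 2 and 3 and 36, 11 and 43 reads in Ctrl IgG2a libraries 1, 2 and 3, that is 17 reads in all against 90. In CPM these were 0.133, 0.0701 and 0.170 in anti-LILRB4 libraries and 0.814, 0.273 and 0.979 in Ctrl IgG2a libraries. Every anti-LILRB4 library lay below every control, and Ctrl IgG2a library 2 was the nearest.

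The log2 fold change of Cish was -2.46 with a 95% interval of -4.23 to -0.69, which was 5.50-fold lower in anti-LILRB4 libraries with bounds of 1.61 and 18.8. The unadjusted edgeR p was 0.0115 and the adjusted p 0.506. Cish passed the filter on low counts through the Ctrl IgG2a libraries alone, 3 of which reached the minimum of 0.225 CPM against 0 anti-LILRB4 libraries, so among tested genes it was bound to be lower. With no filter its edgeR adjusted p was 0.376, and 0 of the 9 genes were called against 0.847% of all genes. In the authors' deposited table its log2 fold change was -2.48 (p-value 0.00765, adjusted p 0.210). With 1 library left out its log2 fold change was between -2.83 and -2.12. Its exons overlap those of Gm17040 and Gm17041 on the opposite strand. T and NK cell markers, a set of lymphocyte genes of which 3 of 10 were tested and Gzma was at 0, summed to 1.31 to 4.61 CPM in anti-LILRB4 libraries and 1.64 to 4.36 in Ctrl IgG2a libraries. The sums overlapped. Their most abundant gene on average was Cd2, a T and NK cell adhesion receptor with a log2 fold change of 0.50. Without Cd2 they were 0.199, 1.19 and 1.12 CPM in anti-LILRB4 libraries and 2.33, 0.818 and 0.842 in Ctrl IgG2a libraries, with overlap. The other 2 tested markers had negative log2 fold changes, with few reads and overlapping groups. They were -2.42 for Klrb1c, an NK cell receptor, and -1.60 for Cd3d, a T cell receptor chain. Klrb1c had 18 reads over anti-LILRB4 libraries and 96 over Ctrl IgG2a libraries, and Cd3d had 12 and 38. Among untested markers, Cd4 (31 and 3 reads) and Nkg7 (32 and 0) had more in anti-LILRB4 libraries, and Cd3g (3 and 14) fewer. The part of lymphocytes in the Cish values was not tested.

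Socs2, the other STAT5-induced inhibitor, did not follow Cish. It was at 1.66, 0.403 and 0.413 CPM in anti-LILRB4 libraries and at 0.339, 0.992 and 0.410 CPM in Ctrl IgG2a libraries. One library of each group, anti-LILRB4 library 1 and Ctrl IgG2a library 2, stood above the rest. Its log2 fold change of 0.51 had a 95% interval of -1.19 to 2.21 (edgeR adjusted p 0.898) and was -0.50 without anti-LILRB4 library 1.

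Socs1, the inhibitor of JAK kinases, was at 0.975, 2.87 and 1.68 CPM in anti-LILRB4 libraries and at 1.40, 0.446 and 2.41 CPM in Ctrl IgG2a libraries. The groups overlapped between 0.975 and 2.41 CPM. The log2 fold change of 0.38 had a 95% interval of -1.01 to 1.76 (edgeR adjusted p 0.912), and its sign turned without anti-LILRB4 library 2 (-0.09) or Ctrl IgG2a library 2 (-0.05). For Socs1 and Socs2 these intervals span more than a doubling in either direction. Counting error alone would give a standard error of 0.14 for Socs1 and 0.22 for Socs2 on the log2 scale, against fitted ones of 0.62 and 0.76, so most of the width is spread between libraries.

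**Figure D3:**
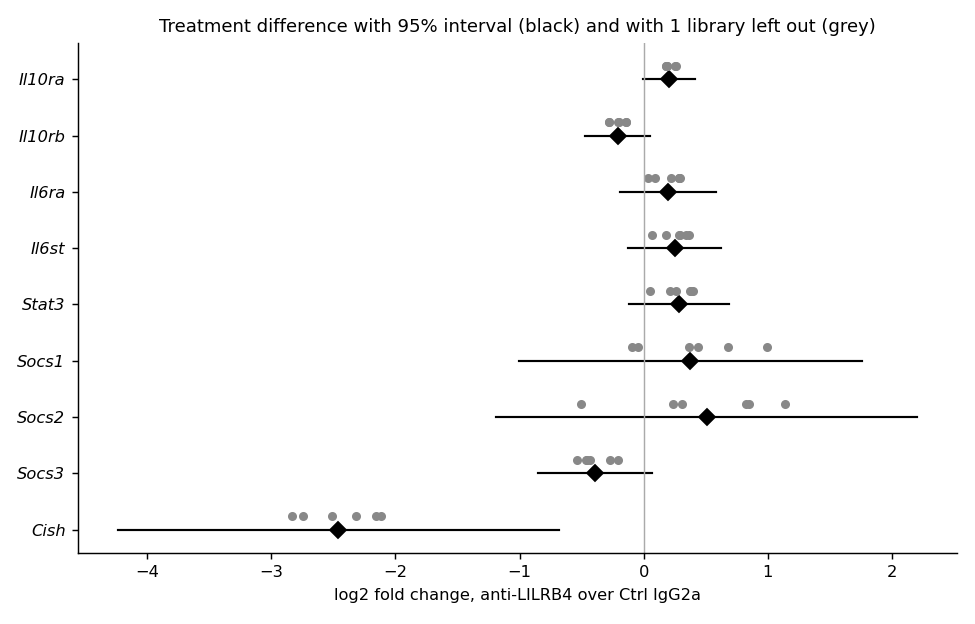
Log2 fold change of each gene, anti-LILRB4 over Ctrl IgG2a, from edgeR (diamond) with its 95% interval (line), and the 6 values with 1 library left out (grey points). The interval of Cish, which passed the filter on low counts through the Ctrl IgG2a libraries alone, lies below 0. Those of the other 8 genes include 0, and the grey points of Socs1 and Socs2 lie on both sides of 0.

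Levels were compared between genes as CPM per kb of merged exons of GENCODE M21. The order in Ctrl IgG2a libraries was Il10ra, Il10rb, Il6st, Socs3, Stat3, Il6ra, Socs1, Cish and Socs2. Il10ra was at 126 ± 6.04 CPM per kb in anti-LILRB4 libraries and 109 ± 6.89 in Ctrl IgG2a libraries, and Il10rb at 38.5 ± 3.51 in anti-LILRB4 libraries and 44.6 ± 4.36 in Ctrl IgG2a libraries (SD, n = 3 each). Il6st followed at 23.0 ± 2.05 in anti-LILRB4 libraries and 19.3 ± 4.58 in Ctrl IgG2a libraries. The ranges of these 3 genes over the 6 libraries did not meet one another. Socs3, Stat3 and Il6ra, all between 5.73 and 12.8 CPM per kb in every library, overlapped and have no clear order among themselves. Socs1 was between 0.153 and 0.988 CPM per kb, and Cish and Socs2 were at or below 0.174 with overlapping ranges.

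**Figure D4:**
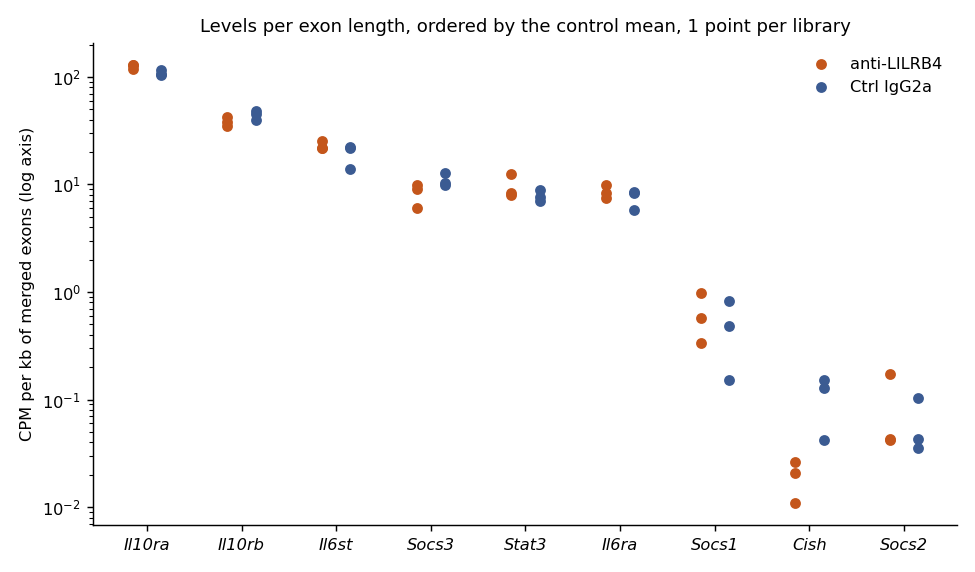
Level of each gene as CPM per kb of merged exons on a log axis, 1 point per library, with anti-LILRB4 libraries left of Ctrl IgG2a libraries. Il10ra, at 104 to 130.1 CPM per kb, stands above all others, and Socs1, Cish and Socs2 lie below 1.

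The genes lie apart on GRCm38 (GENCODE M21 coordinates). Il10ra (ENSMUSG00000032089, chromosome 9, 45253837 to 45269149, minus strand) and Cish (ENSMUSG00000032578, chromosome 9, 107296026 to 107302784, plus strand) share a chromosome. So do Stat3 (ENSMUSG00000004040, chromosome 11, 100885098 to 100939540, minus strand) and Socs3 (ENSMUSG00000053113, chromosome 11, 117966079 to 117970047, minus strand). Il10rb (ENSMUSG00000022969, 91406164 to 91425834, plus strand) and Socs1 (ENSMUSG00000038037, 10782240 to 10785536, minus strand) are on chromosome 16. Il6ra (ENSMUSG00000027947) is on chromosome 3, 89864059 to 89913196, minus strand. Il6st (ENSMUSG00000021756) is on chromosome 13, 112464070 to 112510086, plus strand, and Socs2 (ENSMUSG00000020027) on chromosome 10, 95385362 to 95417180, minus strand. Exons of Il6ra overlap those of Gm42809 on the opposite strand, and those of Il10ra, Il6st, Socs1, Socs2 and Socs3 overlap no other gene.

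Further genes of the pathway were described from 7 lists, without a test of the list. None of their genes was called by edgeR at an adjusted p of 0.05. Of 15 ligand genes of the gp130 and interleukin-10 families, 5 were tested, with a median log2 fold change of -0.23 against -0.01 over all genes. Il6 itself was at 20.9, 18.1 and 24.5 CPM in anti-LILRB4 libraries and at 23.7, 25.2 and 25.3 CPM in Ctrl IgG2a libraries, which overlapped. Clcf1 and Osm, 2 further ligands of gp130 complexes, had log2 fold changes of -0.25 and -0.26, also with overlap. Il10 was not tested, with 1 read over the anti-LILRB4 libraries and 5 over the Ctrl IgG2a libraries.

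Of 14 related receptor chains, the 4 above included, 8 were tested. With an unadjusted p under 0.05, 2 of them had a positive fold change and 1 a negative one, against 4.12% and 3.91% of all genes. Lifr, which pairs with gp130 to bind leukaemia inhibitory factor, was at 91.5, 117 and 100.6 CPM in anti-LILRB4 libraries and at 63.7, 92.2 and 81.5 CPM in Ctrl IgG2a libraries. Only anti-LILRB4 library 1 and Ctrl IgG2a library 2 overlapped. Il11ra1, the interleukin-11 receptor that also uses gp130, was at 59.5, 47.5 and 56.3 CPM in anti-LILRB4 libraries, all below the 69.9, 64.5 and 70.5 CPM of Ctrl IgG2a libraries. The log2 fold changes were 0.38 for Lifr and -0.33 for Il11ra1 (edgeR adjusted p 0.580 and 0.566). Il27ra, a receptor chain for interleukin-27 that pairs with gp130, had one of 0.21 with a standard error of 0.69. Il20rb, a chain of receptors for interleukin-20 family cytokines that was singled out after its values were seen, had 58, 77 and 54 reads in anti-LILRB4 libraries and 15, 8 and 8 in Ctrl IgG2a libraries. DESeq2 gave it an adjusted p of 0.0301, and edgeR one of 0.426. It was at 1.29, 1.35 and 1.31 CPM in anti-LILRB4 libraries and at 0.339, 0.198 and 0.182 in Ctrl IgG2a libraries. Of the controls, only library 1 reached the filter minimum of 0.225 CPM. Il20rb was thus tested through the group where it was high, which favoured a positive fold change. It is 1 of the 2 positive genes counted above.

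Of 11 JAK and STAT genes 10 were tested, with a median log2 fold change of 0.11. Stat5b, which transmits growth hormone and interleukin signals, was the only one with an unadjusted p under 0.05, against 8.03% of all genes. It was at 29.8, 39.2 and 42.7 CPM in anti-LILRB4 libraries and 27.0, 25.7 and 31.1 CPM in Ctrl IgG2a libraries, with overlap. Jak1, the kinase on both receptors, had a log2 fold change of 0.26 and Stat2, an interferon-activated factor, one of -0.23. All 18 genes of the SOCS family and other JAK-STAT inhibitors were tested, with a median of -0.01. Of these, 2 had an unadjusted p under 0.05, against 8.03% of all genes. One was Cish, which the filter on low counts bound to be lower, as given above. The other was Socs7, a family member with an SH2 domain (edgeR adjusted p 0.550). It was at 19.9, 20.5 and 13.8 CPM in anti-LILRB4 libraries and 10.3, 13.1 and 13.04 CPM in Ctrl IgG2a libraries. Sh2b3, an adaptor that restrains cytokine receptors, and Ptpn6, the phosphatase SHP-1 recruited by inhibitory receptors, had log2 fold changes of 0.31 and 0.18 (edgeR adjusted p 0.668 and 0.703).

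Of 24 STAT3 and interleukin-10 response genes 23 were tested, with a median log2 fold change of -0.08. Of these, 4 had an unadjusted p under 0.05, all with a negative fold change, against 3.91% of all genes. Junb, an AP-1 subunit, was at 63.5, 72.7 and 61.2 CPM in anti-LILRB4 libraries, all below the 97.9, 93.3 and 96.6 CPM of Ctrl IgG2a libraries. Its log2 fold change was -0.54, and the adjusted p was 0.00294 by DESeq2 and 0.420 by edgeR. Ier3, an early response gene, and Pim3, a serine kinase, had log2 fold changes of -0.75 and -1.02 without overlap, and Myc had one of -0.39. Junb, Ier3, Dusp1 and Zfp36, 4 genes of this list, also belong to the immediate early and dissociation list. In that list 8 of 24 tested genes had an unadjusted p under 0.05, against 8.03% of all genes. Of the 8, 7 had a negative fold change and 1 a positive one. Anti-LILRB4 libraries lay below all controls in 11 of the 24, against 7.79% of all genes. Klf4 and Ier2, of that list, had log2 fold changes of -1.52 and -0.76. Their adjusted p-values were 0.00268 and 0.00795 by DESeq2 and 0.412 and 0.426 by edgeR. With Junb they were the 3 genes of that list called by DESeq2, against 1.1% of all genes. The part of cell dissociation in the values of Socs3 and Cish was not tested.

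Of 16 STAT5 receptors and response genes 14 were tested, Cish and Socs2 among them. Of these, 7 had an unadjusted p under 0.05, against 8.03% of all genes. Of the 7, 4 had a positive and 3 a negative fold change. Il7r, the interleukin-7 receptor chain, was at 33.1, 38.2 and 39.3 CPM in anti-LILRB4 libraries, all above the 21.4, 26.6 and 21.3 CPM of Ctrl IgG2a libraries. Csf2rb, the shared beta chain of the GM-CSF receptor, was at 88.7, 112 and 79.8 CPM in anti-LILRB4 libraries and 51.6, 66.7 and 73.7 CPM in Ctrl IgG2a libraries, again without overlap. Their log2 fold changes were 0.67 and 0.55, with edgeR adjusted p-values of 0.426 and 0.506 and DESeq2 values of 0.0101 and 0.100. Epor, the erythropoietin receptor, had a log2 fold change of -0.80. The other positive ones of these 7 were Stat5b and Csf2rb2, a second beta chain of mice, and the other negative ones Cish and Il21r, the interleukin-21 receptor chain. Cish passed the filter on low counts through the Ctrl IgG2a libraries alone, so among tested genes it was bound to be negative.

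**Figure D5:**
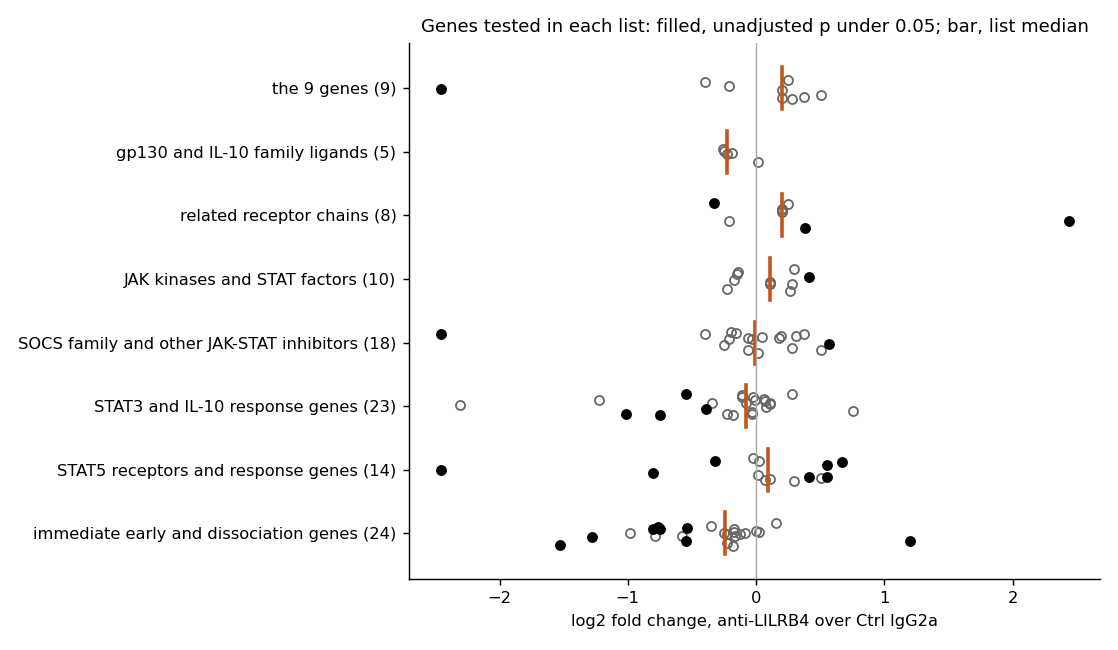
Log2 fold change, anti-LILRB4 over Ctrl IgG2a, of every tested gene of the 9 genes and of the 7 lists, with the number tested in brackets. Filled points have an unadjusted p under 0.05, and the vertical bar is the median. Cish, at -2.46, is the leftmost point of the 9 genes, and the immediate early list has the lowest median, -0.24.

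Among 6304 other protein-coding genes with a mean log2 CPM of at least 4, those whose log2 CPM over the 6 libraries was most like that of Stat3 were Gbf1, Srp72 and Golim4, with Pearson's r of 0.994, 0.991 and 0.990. For Socs3 they were Zc3h14, Mosmo and Zfand2b, with r of 0.985, 0.981 and 0.973. These are descriptions over 6 libraries that share the 2 treatment groups, picked as the highest of many.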

How the data were processed

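RNA sequencing counts of 6 microglia libraries were analysed, grouped and numbered by their titles. The deposited counts are whole reads for each Ensembl gene, with no scaling. Per the submitters' processing notes, STAR, Subread featureCounts, Salmon and DESeq2 1.38.3 were used, with no roles named. Genome build and multi-mapping rules: not given in the sources used here. A second table holds the authors' log2 fold change with its standard error, a score (their ratio), p-values before and after adjustment, and a base mean, which is a normalized signal averaged over libraries. These are DESeq2's columns per the file headers. Its gene starts matched GENCODE M21 for 0 of the 9 genes, so coordinates come from M21 by Ensembl identifier.

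After 287 repeated identifiers with identical counts were dropped, edgeR 4.0.16 (R 4.3.3) was run with filterByExpr at a minimum count of 10, TMM and the quasi-likelihood F test with no covariate, adjusted over 18210 genes. Standard errors are the fold change over the square root of F, and 95% intervals use the test's degrees of freedom. Log2 CPM used a prior count of 2. DESeq2 1.42.0 and limma 3.58.1 (voom) were alternatives, with other scalings and filters, a replicate block and leaving out each library. DESeq2 gave Cish no adjusted p. Same-numbered libraries did not deviate together (correlations 0.01, 0.03 and -0.01), so no pairing by number was seen. With 3 libraries per group this cannot exclude one. The fits were tested on simulated data. The genes and lists were chosen with earlier results of these data known. Named were all 9 genes, and per list the 3 others with the smallest p and a mean log2 CPM of at least 0. Il20rb, Myc, Il21r and Csf2rb2 were named after their values were seen. Intervals do not cover duplicates made by PCR. Figures used matplotlib 3.10.9.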

Additional observations from a re-analysis of the deposited data

How the results depend on the processing

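The count of called genes among the 9 was 0 under all 13 alternatives. Over all genes it was 0 in edgeR, with 1463 at an unadjusted p under 0.05, but 169 in DESeq2 and 300 with no filter on low counts. The median log2 fold change of the 9 genes, 0.21, lay between 0.05 and 0.28 with 1 library left out and kept its sign under every alternative run. The number of the 9 genes without overlap, 2, was between 2 and 5 with 1 library left out, where 23.1 to 26.8% of all genes did not overlap, against 14.7% with all 6 libraries. Called counts over all genes and of the 9 genes were 0 in each such fit. Among the 9 genes the sign reversed for Socs1, between -0.094 and 0.99 with 1 library left out (-0.094 without anti-LILRB4 library 2, -0.05 without Ctrl IgG2a library 2), and for Socs2, between -0.50 (without anti-LILRB4 library 1) and 1.14. The cause was not tested. Cish and Socs2 gave no value with a CPM of at least 1 required in 3 libraries. With the replicate block, which rests on numbers not shown to pair the libraries, 0 genes were called over all genes and among the 9, and the median was 0.21. Counting error made up less of the fitted standard error of Cish (0.38 of 0.80, log2), Socs1 and Socs2 than the spread between libraries did.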
